A study of Mus musculus with 6 samples.

Results

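Cathepsins are the proteases of the lysosome, and 10 of their genes were followed in mouse HOXB-8 cells whose Irf2 gene had been targeted. The members are Ctsa, Ctsb, Ctsc, Ctsd, Ctsh, Ctsk, Ctsl, Ctso, Ctss and Ctsz, the lysosomal cathepsins without cathepsin G. They were chosen by name and found by Entrez ID. All 10 were among the 36528 genes listed, and 9 had enough reads to be tested.

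RNA sequencing was done on 6 libraries in 2 groups of 3. HOXB-8 cells are bone marrow progenitors that a homeobox transcription factor holds in a dividing, immature myeloid state. The IRF2_KO group carried a guide RNA against Irf2, the guide numbered 2 in the extraction notes. The Parental group is Irf2 wild type and carried a control guide named Luc. The notes also call both lines iMACs, and do not say whether a line is a single clone. The tissue label of both groups is bone marrow, and no treatment is given for either.

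Most cathepsins are made as inactive precursors, carried to the lysosome by sorting receptors, and activated there by cleavage at acid pH. Cathepsins B, C, H, K, L, O, S and Z are cysteine proteases, cathepsin D is an aspartic protease and cathepsin A is a serine carboxypeptidase. In myeloid cells they degrade engulfed protein, trim antigens for MHC class II molecules and activate other proteases. IRF2 belongs to the interferon regulatory factors, DNA-binding proteins named for their part in interferon responses. It binds repeats of GAAA and is known both as a repressor and as an activator.

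The total count lay between 29070160 and 34051219 in the IRF2_KO libraries and between 33422590 and 39925038 in the Parental libraries, so that 3 reads equal 0.0751 to 0.103 CPM, the count scaled to a common library total. Separate cultures are not stated for the 3 libraries of either group. The p-values therefore measure only how these libraries vary, and that variation may be technical. Irf2 itself averaged 39.1 ± 1.89 CPM in IRF2_KO and 41.5 ± 0.787 CPM in Parental (SD, n = 3 each), and the edgeR test did not call this difference (adjusted p = 0.209). A guide can disrupt a coding sequence without lowering the transcript, so this level does not check the labels. Progenitor markers were uneven. Of 8, Cd34 and Gata2 were too low to test, and 5 were lower in IRF2_KO, against 23.6% of all genes tested. Hoxb8 did not pass the test, at 135 CPM in IRF2_KO and 127 CPM in Parental. Myb was at 474 CPM in IRF2_KO and 644 CPM in Parental, whereas Mycn was at 4.42 CPM in IRF2_KO and 82.7 CPM in Parental. Kit was at 0.827 CPM in IRF2_KO and 8.04 CPM in Parental. Macrophage markers were also present in both groups, with Lyz2 at 480.3 CPM in IRF2_KO and 193 CPM in Parental, while C1qa, C1qb and C1qc were too low to test.

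Of the 9 cathepsins tested, 7 were higher in IRF2_KO, 1 was lower and 1 did not pass the test. Cathepsin O transcript nearly disappeared, falling 39.7-fold, while cathepsin S rose 3.62-fold. Cathepsins A and C rose 1.88-fold and 1.94-fold, and cathepsins B, D and L rose 1.5-fold, 1.40-fold and 1.25-fold. These calls are from edgeR's quasi-likelihood test at a Benjamini-Hochberg adjusted p of 0.05 over 13353 genes, of which 47.2% were called, 23.6% higher and 23.6% lower. The median log2 fold change was 0.48 over the tested cathepsins and -0.01 over all genes tested. Markers of macrophages moved in the same libraries, as described further on, and their part in these changes was not tested. In bulk RNA, fewer cells of a type and less RNA per cell cannot be told apart.

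**Figure D1:**
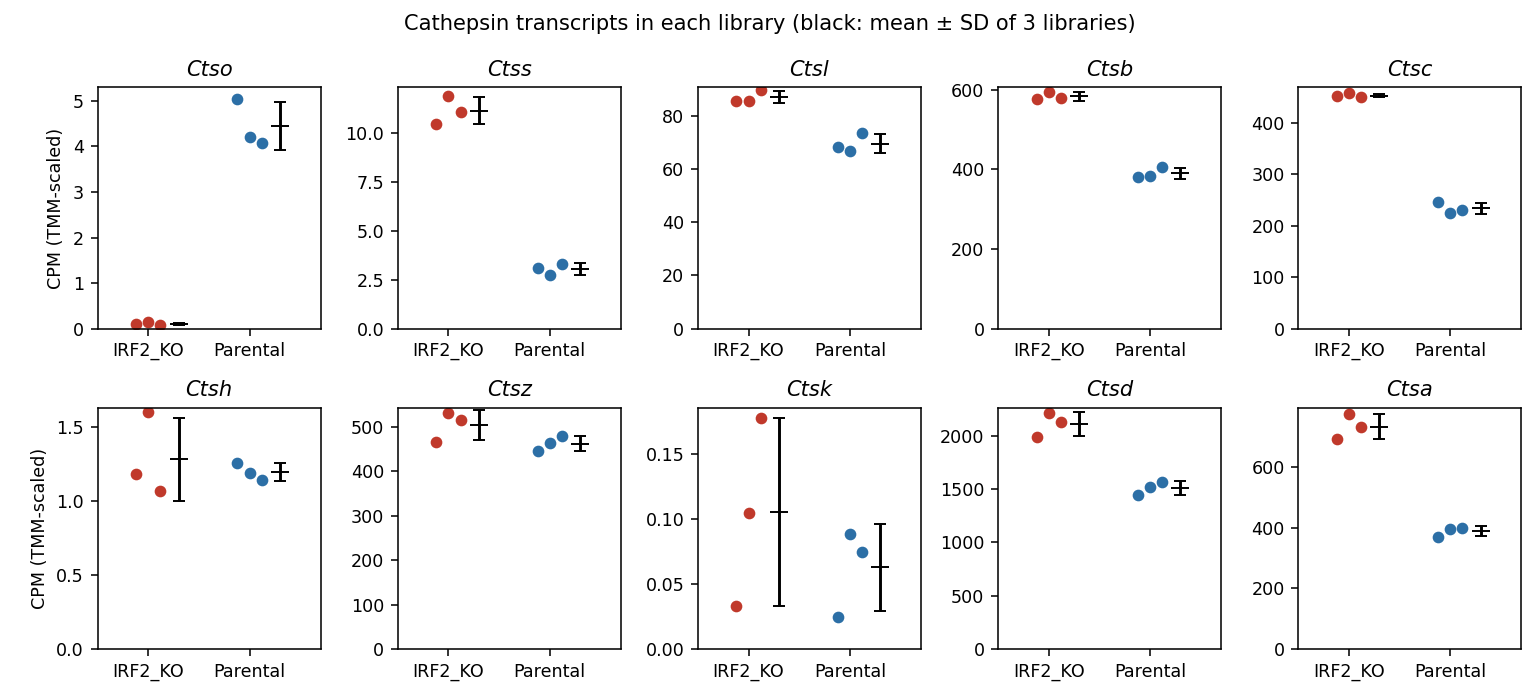
TMM-scaled CPM (vertical axes, each from 0) of the 10 cathepsin genes in the 3 IRF2_KO libraries (red) and the 3 Parental libraries (blue), with the mean ± SD of each group in black. Ctso lies between 0.0892 and 0.139 CPM in IRF2_KO against 4.08 to 5.05 CPM in Parental, and the groups also stand apart for Ctss, Ctsl, Ctsb, Ctsc, Ctsd and Ctsa.

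The promoter windows of the cathepsins that changed most, Ctso and Ctss, are shown because letters of the kind IRF proteins bind lie close to the annotated start of both genes. Each window runs from 250 bases before an annotated start site to 50 bases after it (RefSeq, GRCm38.p6). For Ctsl and Ctsc that site lies inside the gene span given below. The Ctsl window, chr13:64370471-64370770 on the minus strand, lies wholly within the gene, and the bases before the Ctsl span were not searched. The search used a repeat, GAAA followed by any 2 bases and GAAA again, and the shorter core AANNGAAA that is contained in it, where N is any base, on both strands. Matches are in capitals. Ctso is on the plus strand at chr3:81932351-81932650 and Ctss on the plus strand at chr3:95526536-95526835.
Ctso: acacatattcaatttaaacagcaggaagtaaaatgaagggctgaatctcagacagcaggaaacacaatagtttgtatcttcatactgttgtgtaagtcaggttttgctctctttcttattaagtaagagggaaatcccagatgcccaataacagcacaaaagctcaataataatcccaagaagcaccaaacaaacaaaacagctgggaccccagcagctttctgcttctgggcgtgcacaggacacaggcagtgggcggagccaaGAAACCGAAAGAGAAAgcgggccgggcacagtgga
Ctss: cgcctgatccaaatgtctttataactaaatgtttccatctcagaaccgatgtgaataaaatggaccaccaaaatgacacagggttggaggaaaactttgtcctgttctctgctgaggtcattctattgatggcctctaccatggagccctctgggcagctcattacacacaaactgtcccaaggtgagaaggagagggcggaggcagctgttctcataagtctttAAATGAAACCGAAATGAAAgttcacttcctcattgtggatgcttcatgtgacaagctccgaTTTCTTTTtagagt
In Ctso a pair of overlapping repeats began 15 and 21 bases after the start site. In Ctss a repeat began 21 bases before the start site, within 3 overlapping cores, and another core lay on the other strand 36 bases after it. The repeat was found in 2 of the 9 member windows and in 3.44% of all 32851 windows in the table, and in 3.14% of the 12593 windows of tested genes. The core was found in 3 of the 9 windows, the third being Ctsl, in 23.9% of all windows and in 17.9% of those of tested genes. These matches describe the letters only, and no binding was measured.

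The windows of Ctsd and of the second annotated start of Ctsa are shown for another kind of letters, the E-box CACGTG and its extended form TCACGTGA, which resembles the element bound by TFEB-type regulators of lysosomal genes. Ctsd is on the minus strand at chr7:142387778-142388077, and the Ctsa window is on the plus strand at chr2:164833523-164833822.
Ctsd: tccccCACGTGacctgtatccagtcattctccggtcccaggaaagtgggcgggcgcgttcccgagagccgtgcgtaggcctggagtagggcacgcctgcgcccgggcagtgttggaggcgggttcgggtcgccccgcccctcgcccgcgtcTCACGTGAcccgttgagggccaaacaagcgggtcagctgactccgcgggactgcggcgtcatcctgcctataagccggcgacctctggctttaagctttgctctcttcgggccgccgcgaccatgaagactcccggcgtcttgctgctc
Ctsa: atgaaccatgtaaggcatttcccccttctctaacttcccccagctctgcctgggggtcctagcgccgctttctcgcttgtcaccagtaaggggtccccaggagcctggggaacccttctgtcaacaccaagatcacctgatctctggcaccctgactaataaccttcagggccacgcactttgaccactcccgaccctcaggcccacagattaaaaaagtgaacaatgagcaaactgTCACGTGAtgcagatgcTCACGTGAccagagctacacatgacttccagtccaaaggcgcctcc
The extended form began 99 bases before the start in Ctsd, and 13 bases before and 4 bases after the start in Ctsa. It was found in 2 of the 9 member windows, against 0.974% of all windows and 1.79% of those of tested genes. The E-box itself was found in 3 of the 9, against 7.15% of all windows and 10% of those of tested genes. The third was the Ctsl window, which lies within the gene. The windows of Ctsc, Ctsz, Ctsk and the first start of Ctsa held neither kind of letters. Windows were used for 8 of the 10 genes, and those of Ctsb and Ctsh were not analysed here.

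**Figure D2:**
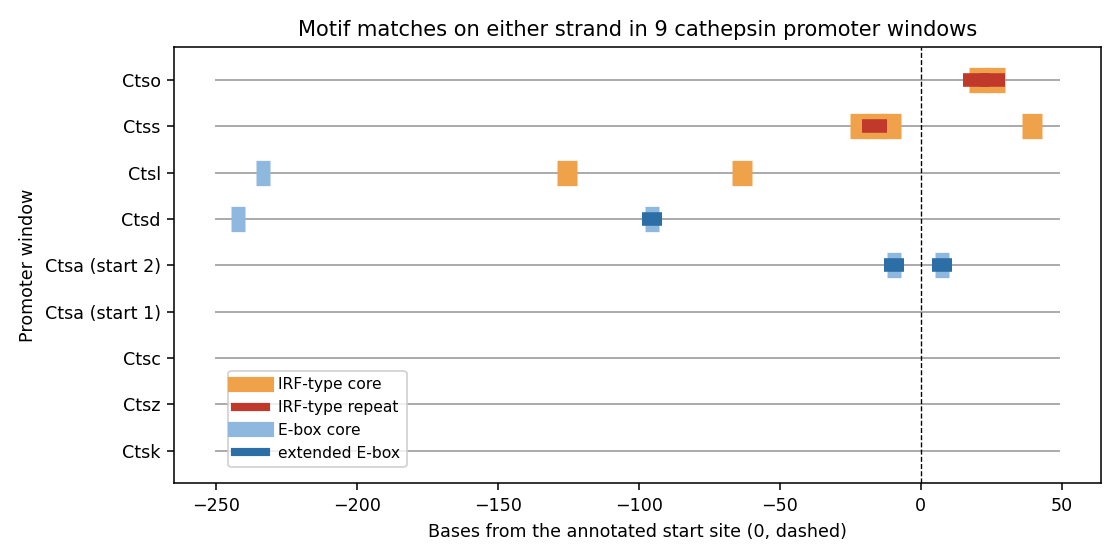
Positions of motif matches in 9 promoter windows of 8 cathepsin genes, in bases from the annotated start site (horizontal axis), with the gene and start on the vertical axis. Orange and red bars are the short and the repeated IRF-type letters, and light and dark blue bars the E-box and its extended form. IRF-type repeats begin within 21 bases of the start in Ctso and Ctss, and extended E-boxes lie in Ctsd and Ctsa. The Ctsl window lies wholly within the gene span.

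Ctso (Entrez gene 229445, chromosome 3, 81932601 to 81956725) encodes cathepsin O, a widely expressed but little studied cysteine protease. It had 3, 4 and 3 reads in the IRF2_KO libraries, against 200, 142 and 164 reads in the Parental libraries. This is 0.101, 0.139 and 0.0892 CPM in IRF2_KO and 5.05, 4.21 and 4.08 CPM in Parental. Every IRF2_KO library was near the level of 3 reads, and the groups were far apart. The log2 fold change was -5.31 (SE 0.26, edgeR adjusted p = 1.57e-11), the 11th most negative of the 13353 genes tested. From the summed reads, 10 against 506, the level was 41.9-fold lower, with a 95% exact binomial interval of 22.6 to 88.0 that covers counting error only. With limma on the deposited RPKM values plus a pseudocount of 0.1 the log2 fold change was -3.36, since 0.1 is larger than the IRF2_KO level of 0.0311 RPKM.

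The genes whose levels over the 6 libraries were most like those of Ctso were taken by the Euclidean distance of mean-centred log2 CPM, among 11845 genes that averaged 1 CPM or more. With only 2 groups, this likeness is mainly a like fold change. A prior count of 2 was added to the reads, which shrinks the change of genes with few reads, as Ctso in IRF2_KO. The nearest genes were Akap2 (distance 0.337), a kinase anchoring protein gene, and Apobec3 (0.438), a cytidine deaminase gene that restricts retroviruses. Gsdmd (0.569), the gene of the pyroptotic pore protein, came after them. Their log2 fold changes were -4.98, -4.83 and -5.05.

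Ctss (Entrez gene 13040, chromosome 3, 95526786 to 95556405) encodes cathepsin S, the protease that cuts the invariant chain in antigen-presenting cells and is known to be induced by interferon-gamma. Its level was 10.5, 11.9 and 11.1 CPM in the IRF2_KO libraries, against 3.13, 2.73 and 3.33 CPM in the Parental libraries. All IRF2_KO libraries were above all Parental libraries. The log2 fold change was 1.86 (SE 0.10, edgeR adjusted p = 9.50e-11), and 2.63% of the genes tested changed by more in either direction. By the same distance the nearest genes were Mocos (0.148), a molybdenum cofactor sulfurase gene, Aldh3b1 (0.149), an aldehyde dehydrogenase gene, and Tnfrsf9 (0.172), a receptor of the tumour necrosis factor family. They rose by 1.83, 1.90 and 1.86 on the log2 scale.

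Ctsk (Entrez gene 13038, chromosome 3, 95499210 to 95509387), the collagen-degrading cathepsin of osteoclasts, lies near Ctss but was close to silent. It had 1, 3 and 6 reads in the IRF2_KO libraries and 1, 3 and 3 reads in the Parental libraries. It was too low to test, and the groups overlapped. The ratio of summed reads scaled to depth was 1.72 (95% exact binomial interval 0.592 to 5.34), so a difference was not detectable at this depth.

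Ctsl (Entrez gene 13039, chromosome 13, 64361890 to 64370772) encodes cathepsin L, a broad endopeptidase of the lysosome. Its level was 85.6, 85.6 and 89.5 CPM in the IRF2_KO libraries, against 68.4, 66.6 and 73.5 CPM in the Parental libraries. The groups did not overlap, and the log2 fold change was 0.32 (SE 0.05, edgeR adjusted p = 3.22e-05). Ctsb (Entrez gene 13030, chromosome 14, 63122462 to 63145923) encodes cathepsin B, an abundant protease with both endopeptidase and dipeptidase activity. Its level was 576, 595 and 578 CPM in IRF2_KO, against 381, 382 and 406 CPM in Parental. Its log2 fold change was 0.58 (SE 0.04, edgeR adjusted p = 2.32e-09), again without overlap.

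Ctsc (Entrez gene 13032, chromosome 7, 88278024 to 88315861) encodes cathepsin C, the dipeptidyl peptidase that activates the serine proteases of neutrophil granules. Its level was 452, 458 and 451 CPM in the IRF2_KO libraries, against 246, 226 and 231 CPM in the Parental libraries. The libraries of the IRF2_KO group differed among themselves by a coefficient of variation of 0.938%, the lowest of any cathepsin in either group. The log2 fold change was 0.95 (SE 0.04, edgeR adjusted p = 3.57e-12).

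Ctsh and Ctsz encode the aminopeptidase cathepsin H and the carboxypeptidase cathepsin Z. Ctsh (Entrez gene 13036, chromosome 9, 90054267 to 90076095) had 1.18, 1.60 and 1.07 CPM in the IRF2_KO libraries, against 1.26, 1.19 and 1.14 CPM in the Parental libraries. The groups overlapped and the log2 fold change of 0.09 did not pass the test (95% interval -0.35 to 0.53, edgeR adjusted p = 0.760). Ctsz (Entrez gene 64138, chromosome 2, 174427494 to 174439039) had 467, 531 and 516 CPM in IRF2_KO, against 445, 463 and 479 CPM in Parental. Here too the groups overlapped, although the log2 fold change of 0.13 (SE 0.05) passed the test narrowly (edgeR adjusted p = 0.0408). The call was lost without IRF2_KO replicate 2 (log2 fold change 0.09, adjusted p = 0.148), IRF2_KO replicate 3 (0.11, 0.159), Parental replicate 1 (0.10, 0.136) or Parental replicate 2 (0.13, 0.107), with scaling by library size alone (0.09, 0.105), and with limma on RPKM (0.13, 0.0939).

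Ctsd and Ctsa encode the members that are not cysteine proteases. Ctsd (Entrez gene 13033, chromosome 7, 142375910 to 142387827), for the aspartic protease cathepsin D, had 1990.5, 2211 and 2124 CPM in the IRF2_KO libraries, against 1440.2, 1517 and 1567 CPM in the Parental libraries. Its log2 fold change was 0.48 (SE 0.05, edgeR adjusted p = 1.44e-07), and the groups did not overlap. Ctsa (Entrez gene 19025, chromosome 2, 164832872 to 164841032), for the carboxypeptidase that also protects lysosomal sialidase and galactosidase, had 690.5, 773 and 731 CPM in IRF2_KO, against 369.9, 395 and 399.6 CPM in Parental. Its log2 fold change was 0.91 (SE 0.05, edgeR adjusted p = 3.00e-11), also without overlap. Ctsa shares bases with Neurl2 and Pltp, and whether strand was used in counting is not given in the sources used here, so reads of the shared bases are uncertain. In all, the groups did not overlap for 7 of the 9 tested cathepsins, against 54.0% of all genes tested.

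**Figure D3:**
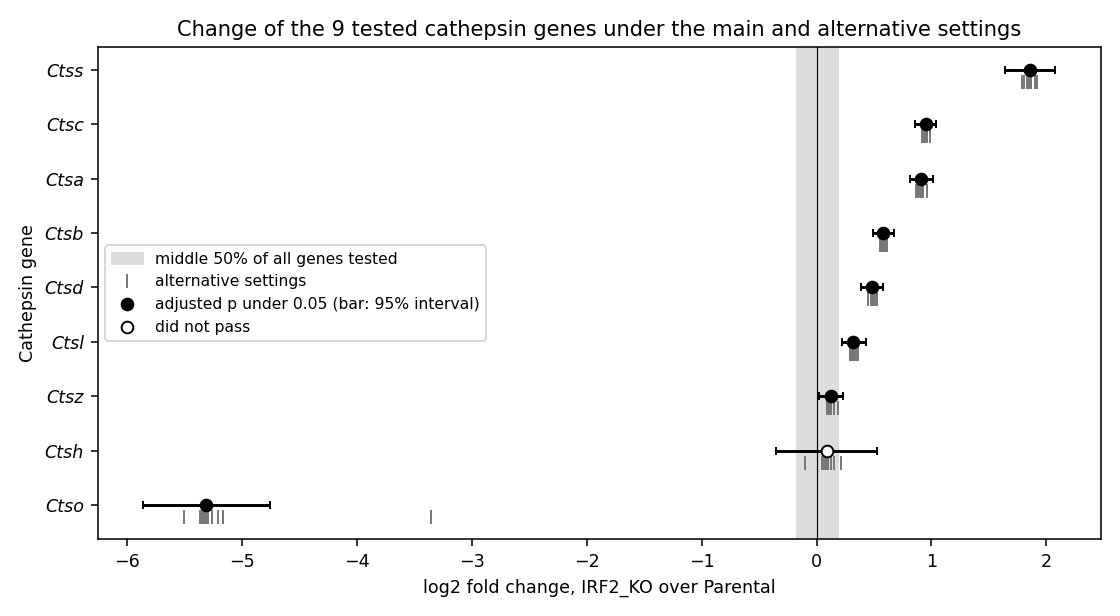
Log2 fold change of IRF2_KO over Parental (horizontal axis) for the 9 tested cathepsins, with the 95% interval from the edgeR fit. Filled points passed an adjusted p of 0.05, grey ticks are the 16 alternative settings, and the grey band holds the middle 50% of all genes tested (-0.17 to 0.19). Ctss is at 1.86 and Ctso at -5.31, and the single tick of Ctso at -3.36 is the setting with a pseudocount.

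Levels of different genes were set side by side on the authors' size-factor-adjusted RPKM, which divides by gene length. Ctsd led in both groups, with a mean of 1055 RPKM in IRF2_KO and 750.1 RPKM in Parental, and 0.270% of tested genes had a higher mean over the 6 libraries. In both groups Ctsz (354 RPKM in IRF2_KO and 323 RPKM in Parental) came after it, then Ctsa (197 in IRF2_KO and 104 in Parental) and Ctsb (120.2 in IRF2_KO and 79.9 in Parental). Next were Ctsc, at 82.3 RPKM in IRF2_KO and 42.2 RPKM in Parental, and Ctsl, at 36.5 RPKM in IRF2_KO and 29.0 RPKM in Parental. The order of these 6 genes was the same in both groups, and no neighbours in it overlapped over the libraries of a group. Below them came Ctss, at 8.0 RPKM in IRF2_KO and 2.18 RPKM in Parental.

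The order changed among the low members. Ctso was eighth of the 10 in Parental, at 1.25 RPKM, and last in IRF2_KO, at 0.0311 RPKM, where its range overlapped that of Ctsk (0.0476 RPKM). Ctsh stood at 0.773 RPKM in IRF2_KO and 0.717 RPKM in Parental. The RPKM of the 10 genes summed to 1746, 1948 and 1868 in the IRF2_KO libraries and to 1285, 1333 and 1379 in the Parental libraries, a ratio of means of 1.39. Ctsd made up 56.9% of that sum in IRF2_KO and 56.3% in Parental. The share of Ctsz was 19.1% in IRF2_KO and 24.2% in Parental, and that of Ctsa 10.6% in IRF2_KO and 7.81% in Parental. Ctso made up 0.00167% of the sum in IRF2_KO and 0.0943% in Parental.

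**Figure D4:**
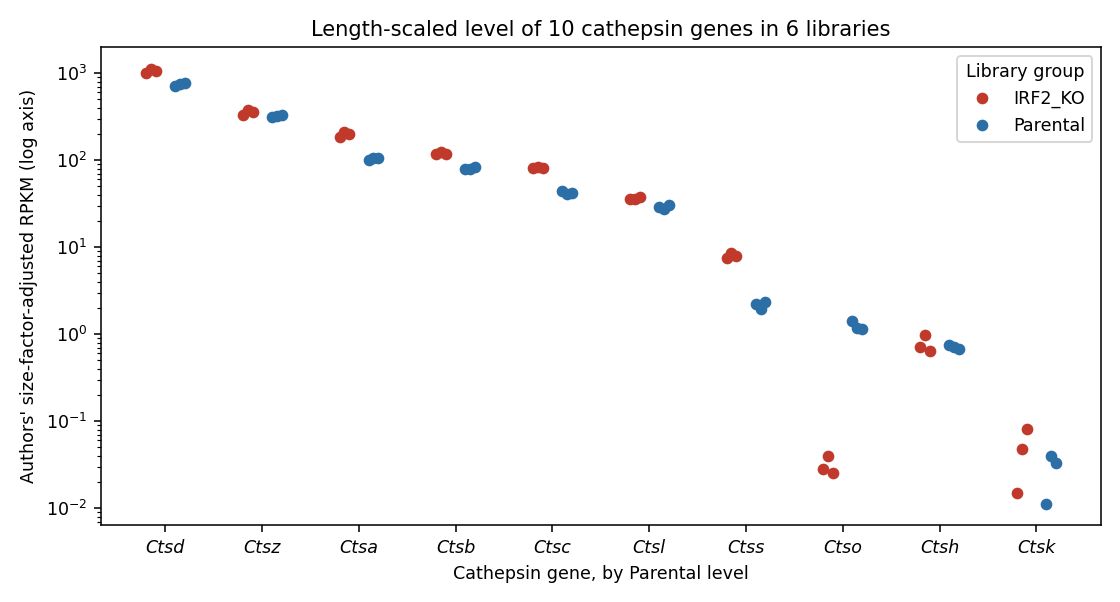
The authors' size-factor-adjusted RPKM (log vertical axis) of the 10 cathepsin genes, ordered by Parental level, with a point for each of the 3 IRF2_KO libraries (red) and 3 Parental libraries (blue). Levels run from about 1055 RPKM for Ctsd in IRF2_KO to a mean of 0.0282 RPKM for Ctsk in Parental, and Ctso in IRF2_KO has dropped to the level of Ctsk.

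Among other cathepsin genes, 2 of 13 had enough reads to test. Ctsg, the azurophil granule serine protease cathepsin G, had 4195 ± 234 CPM in IRF2_KO and 3829 ± 165 CPM in Parental (SD, n = 3 each). Its log2 fold change of 0.13 passed narrowly (edgeR adjusted p = 0.0300), and the call was lost under 8 of 16 alternatives. Those include leaving out IRF2_KO replicate 2 (log2 fold change 0.09, adjusted p = 0.112), IRF2_KO replicate 3 (0.13, 0.109), Parental replicate 1 (0.10, 0.127) or Parental replicate 2 (0.14, 0.0794). Ctsf, for the cysteine protease cathepsin F, had 0.385 CPM in IRF2_KO and 0.543 CPM in Parental and did not pass (adjusted p = 0.278). The genes of the placental cathepsin group, Ctsj, Ctsm, Ctsq, Ctsr, Cts3, Cts6, Cts7, Cts8 and Ctsll3, had no read in any library. Ctse and Ctsw had at most 8 reads in any library.

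Of the inhibitors of cysteine cathepsins, 8 of 9 tested cystatins and stefins were higher and none was lower. Over all genes tested, 23.6% were higher and 23.6% lower. The median log2 fold change of the 9 inhibitors was 1.38, the value of Cstdc5, and the larger rises were all in stefin-type genes. The stefin-type gene Cstdc4 had 89.0 ± 4.20 CPM in IRF2_KO and 32.0 ± 0.956 CPM in Parental (log2 fold change 1.47, SE 0.05, edgeR adjusted p = 1.43e-13). Cstdc5 rose by 1.38 (SE 0.12) and Stfa2l1 by 1.81 (SE 0.18) on the log2 scale. These genes are close paralogs in a cluster, and reads matching several places were not counted, so their levels are uncertain. Outside that cluster the changes were small. The secreted inhibitor Cst3 rose by 0.38 and the cytosolic stefin B gene Cstb by 0.30, and Cst7 did not pass (log2 fold change -0.04).

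Of 13 tested genes for the sorting and maturation of lysosomal enzymes, 5 were higher, 2 were lower and 6 did not pass, with a median of 0.12. Over all genes tested, 23.6% were higher and 23.6% lower, so calls in this list were about as common as elsewhere. Only 1 was lower without IRF2_KO replicate 1, IRF2_KO replicate 3 or Parental replicate 3. Lgmn, for legumain, the asparaginyl protease that cleaves cathepsin precursors, had 1.86 ± 0.276 CPM in IRF2_KO and 0.460 ± 0.0394 CPM in Parental (log2 fold change 2.01, SE 0.23, edgeR adjusted p = 1.37e-06). The sorting receptor gene Sort1 had 932 ± 31.5 CPM in IRF2_KO and 604 ± 2.0 CPM in Parental, and Sorl1 rose by 0.47 on the log2 scale. Gnptab, for the enzyme that starts the mannose 6-phosphate tag, stood at 207 CPM in both groups (log2 fold change -0.00, adjusted p = 0.986). Those called lower were Nagpa (log2 fold change -0.23, edgeR adjusted p = 0.000811) and Gga3 (-0.15, 0.035). Igf2r was too low to test, with 0, 2 and 3 reads in IRF2_KO and 8, 12 and 5 reads in Parental.

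Partners and shared substrates were higher in 3 of 4 cases, against 23.6% of all genes tested. Grn, for progranulin, which cathepsins cut into granulins, rose by 0.74 on the log2 scale (SE 0.05, edgeR adjusted p = 6.15e-10). Psap, for prosaposin, rose by 0.48 and Glb1, for the galactosidase that cathepsin A protects, by 0.30. Neu1, for the sialidase that cathepsin A protects, did not pass (log2 fold change 0.07).

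Among 7 other lysosomal peptidases, 3 were higher, 1 was lower and 3 did not pass. Of all genes tested, 23.6% were higher and 23.6% lower. The one that fell was Cpq, for the dipeptidase carboxypeptidase Q, with 0.420 ± 0.0847 CPM in IRF2_KO and 11.1 ± 0.719 CPM in Parental (log2 fold change -4.70, SE 0.16, edgeR adjusted p = 7.25e-14). Tpp1, tripeptidyl peptidase, and Prcp, prolylcarboxypeptidase, rose by 0.40 and 0.46, and the third riser is Lgmn. Of the TFEB-type regulators and their partners, 7 of 9 tested were higher and none was lower, with a median of 0.25. Among the TFEB-type factors themselves, Tfeb rose by 0.26, Tfec by 0.15 and Mitf by 0.42, while Tfe3 (0.14) did not pass. Mcoln1, a lysosomal calcium channel gene, rose by 0.32, Fnip2 by 0.36 and Zkscan3, a repressor of lysosomal genes, by 0.24.

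The serine proteases that cathepsin C activates went both ways: of 5 tested, 1 was higher, 2 were lower and 2 did not pass. The shares of all genes tested were 23.6% higher and 23.6% lower. Elane, neutrophil elastase, had 924 ± 72.2 CPM in IRF2_KO and 2989 ± 98.9 CPM in Parental (log2 fold change -1.69, SE 0.05, edgeR adjusted p = 2.20e-14). Prss57 fell by 0.19 on the log2 scale, a call that was lost without Parental replicate 3 (-0.15, adjusted p = 0.0539), and the member called higher is Ctsg, whose call is as narrow as given above. For MHC class II loading, in which cathepsin S acts, 1 of 5 tested genes was higher, against 23.6% of all genes tested. It was Cd74, the invariant chain that cathepsin S cuts, with 2.31 ± 0.271 CPM in IRF2_KO and 1.05 ± 0.180 CPM in Parental (log2 fold change 1.15, SE 0.19). The class II chain genes H2-Aa, H2-Ab1 and H2-Eb1 were too low to test, with at most 11 reads in any library.

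Endosomal Toll-like receptors are cut by cathepsins before they signal. All 4 tested genes of that list were higher, against 23.6% of all genes tested, with a median of 2.05. Tlr13 had 14.1 ± 0.379 CPM in IRF2_KO and 2.58 ± 0.269 CPM in Parental (log2 fold change 2.45, SE 0.10, edgeR adjusted p = 1.04e-12). Tlr7 rose by 1.66, Tlr8 by 2.66 and Unc93b1, their chaperone, by 0.55, while Tlr3 and Tlr9 were too low to test. Tlr8 was low, with 24, 25 and 30 reads in IRF2_KO and 7, 5 and 3 reads in Parental. Tlr3 went the other way, with 0, 2 and 2 reads in IRF2_KO and 5, 4 and 13 reads in Parental. Tlr9 overlapped between the groups, with 2, 5 and 7 reads in IRF2_KO and 0, 2 and 4 reads in Parental. Tlr8 is named here after its value was seen.

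**Figure D5:**
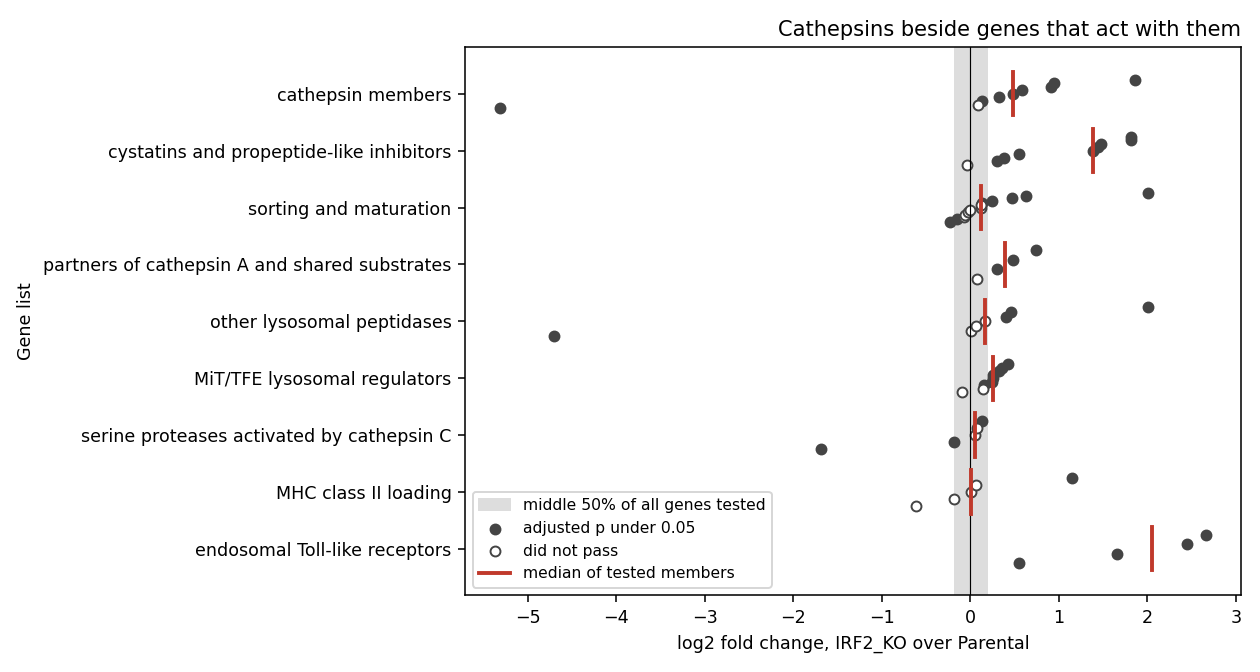
Log2 fold change of IRF2_KO over Parental (horizontal axis) for every tested gene of 9 lists (vertical axis), with filled points for an adjusted p under 0.05, open points for those that did not pass, a red line at each list's median, and a grey band for the middle 50% of all genes tested. Ctso at -5.31 and Cpq at -4.70 lie far to the left. The cystatins have a median of 1.38, and the levels of the close paralogs among them are uncertain.

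Markers of macrophages were also higher in IRF2_KO. Of 17 such genes, 11 were tested, 10 were higher and none was lower, against 23.6% higher and 23.6% lower over all genes tested. Their summed level was 1704 to 1709.7 CPM in the IRF2_KO libraries and 584 to 594 CPM in the Parental libraries. Most of that sum came from Gpnmb, Lyz2 and Lpl, at 535, 480.3 and 472 CPM in IRF2_KO and 185, 193 and 71.8 CPM in Parental. Lpl rose by 2.72, Gpnmb by 1.53 and Lyz2 by 1.32 on the log2 scale. Cd163 was too low to test and went the other way, with no read in IRF2_KO and 11, 2 and 10 reads in Parental. C1qb had no read in either group. Progenitor markers were lower in 5 of 6 tested genes, led by Mycn (log2 fold change -4.23) and Kit (-3.26). The part of either list in the cathepsin changes was not tested.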

How the data were processed

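Gene expression was measured by RNA sequencing in 6 libraries, 3 labelled IRF2_KO and 3 labelled Parental. The labels give no batch or replicate number, so replicates are numbered in record order and pair nothing. Libraries came from a stranded total RNA kit, per the labels' protocols, while the molecule label names polyadenylated RNA, and which applies was not settled here. Per the submitters' processing notes, the authors used GSNAP and GRCm38, with versions and annotation not given in the sources used here. Per the file headers, each deposited count is the number of reads that align uniquely to a gene model, which lowers genes with near-identical copies. The deposited RPKM values are adjusted by a size factor, per the file headers. Over 10251 genes with at least 100 reads in every library they were the same counts rescaled by 1 factor per library.

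Symbols and positions came from a RefSeq table of GRCm38.p6 (31049 IDs), and GENCODE M21 named another 77. The analysis used edgeR 4.0.16 in R 4.3.3: filterByExpr kept 13353 genes, TMM factors were 0.987 to 1.02, and a two-sided robust quasi-likelihood F-test compared the groups. A gene was called at a Benjamini-Hochberg adjusted p under 0.05. The standard error of a log2 fold change is its size over the square root of F. CPM are TMM-scaled, and SDs are over 3 libraries. The fit was also run on simulated data in which far fewer genes changed than were called here. That run therefore does not check calls at the share seen in these data. Pairs of libraries of a group differed by a mean chi-square per gene of 2.78 to 10.1, above the sampling noise value of 1, so no pair was one library deposited in duplicate, and repeat preparations of one culture cannot be told apart from separate cultures. With 3 against 3 libraries an exact permutation test of 1 gene cannot go below p = 0.10, so none is given.

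The cathepsins and all lists were chosen with earlier results of these data known. Of 171 list genes, 168 were matched. Named genes are the 10 cathepsins, up to 3 genes of each other list with the smallest adjusted p, any sole member in its direction, the 3 genes most like each cathepsin that changed by at least 1 on the log2 scale, the genomic neighbours of called cathepsins, and Irf2. Other list genes were named after their values were seen. Alternatives were DESeq2 1.42.0, limma-voom, limma on log2 RPKM with a pseudocount of 0.1 (limma 3.58.1), scaling by library size alone, by upper quartiles or by RLE, no filter, 1 CPM in 3 libraries, an adjusted p of 0.01, a test against 1.5-fold, and each library left out in turn.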

Additional observations from a re-analysis of the deposited data

How the results depend on the processing

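Of the 16 alternatives, the edgeR test against a minimum change of 1.5-fold lowered the counts most, except the 1 cathepsin called lower. It called 718 genes higher and 301 lower (7.63% of those tested), 3 cathepsins higher (Ctsa, Ctsc and Ctss), and 26 genes of the other lists higher and 6 lower, against 3146, 3150, 7, 53 and 13. Ctso was called lower under all 16. Leaving out 1 library gave 2717 to 3158 genes higher and 2539 to 3099 lower, 6 to 7 cathepsins higher and 1 to 1 lower, and 51 to 58 other list genes higher and 11 to 13 lower. Over all 16, log2 fold changes were 1.79 to 1.92 for Ctss, 0.92 to 0.99 for Ctsc, 0.87 to 0.96 for Ctsa, 0.55 to 0.61 for Ctsb, 0.45 to 0.53 for Ctsd, 0.29 to 0.36 for Ctsl and -5.51 to -3.36 for Ctso. Ctsh ranged from -0.10 to 0.21 and never passed. Ctsz (0.09 to 0.19) lost its call under 8, an adjusted p of 0.01 and the 1.5-fold test among them. The median of all genes was -0.04 with library size alone and -0.01 in the main setting. Depth limits Ctsk in both groups and Ctso in IRF2_KO, with at most 6 and 4 reads in a library. No paired analysis was possible because the labels give no replicate numbers.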

Other observations

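Genes beside the called cathepsins were read for the same contrast. Tdo2, 1686 bases from Ctso, had at most 1 read in any library, and Ifitm10, 2130 bases from Ctsd, at most 3. Pltp and Neurl2, which overlap Ctsa, were higher, Pltp by 0.80 (SE 0.07, edgeR adjusted p = 4.93e-08) and Neurl2 by 0.48 (SE 0.09, adjusted p = 0.000283) on the log2 scale. Fdft1, a cholesterol synthesis gene that overlaps Ctsb, fell by 0.21 (SE 0.06, adjusted p = 0.0102), and Nelfcd, which overlaps Ctsz, did not pass (0.05, adjusted p = 0.430). For the other neighbours no read was found or the gene was not analysed here.

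Of the osteoclast markers, the setting in which Ctsk is best known, 3 of 5 tested genes were higher, against 23.6% of all genes tested. These were Itgb3 (log2 fold change 1.33), Atp6v0d2 (2.05) and Mmp9 (0.65), while Oscar (0.13) and Nfatc1 (-0.05) did not pass. The Mmp9 call was lost under 7 of 16 alternatives, among them without IRF2_KO replicate 2 (0.40, adjusted p = 0.198), Parental replicate 1 (0.58, 0.0908) or Parental replicate 3 (0.63, 0.0716). Ocstamp and Calcr had no read, and Acp5, Dcstamp and Tnfrsf11a had at most 7 reads in any library. Dendritic cell markers were higher in 4 of 5 tested genes, Clec10a by 1.31, Itgax by 1.41 and Zbtb46 by 2.25, while Flt3 fell by 0.85. Of 12 neutrophil markers 6 were higher and 3 lower, Ngp rising by 0.92 and Ltf by 1.38 and Camp falling by 0.92. Both lists stand beside 23.6% higher and 23.6% lower over all genes tested. No B or T cell marker had enough reads to test with all 6 libraries, and the single tested mast cell and erythroid markers, Ms4a2 and Klf1, did not pass (log2 fold changes -0.15 and 0.30).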
